A study of Mus musculus with 12 samples.

Results

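The complement genes described here are 9 of the 55421 genes counted in mouse hippocampus: C1qa, C1qb, C1qc, C2, C3, C4b, C3ar1, C5ar1 and Serping1. They were listed by name as components, receptors and a regulator of the complement cascade, with earlier results of these data known. All 9 were among the 22592 genes that had more than 20 counts over the 12 libraries and were tested. The libraries were made from poly(A) RNA of whole hippocampal tissue, 3 for each of 4 groups. WT-Veh (RH2, RH5 and RH15) were wild-type mice injected with vehicle, and WT-Nut3 (RH1, RH9 and RH14) were wild-type mice injected with Nutlin-3, an inhibitor of the ubiquitin ligase MDM2. KO-Veh (RH7, RH10 and RH16) and KO-Nut3 (RH6, RH8 and RH13) were Fmr1-KO mice, a mouse model of Fragile X Syndrome, given the same injections. Every mouse was injected intraperitoneally at 2 months of age and its tissue was collected at 6 months. By the methods, all mice were of C57BL/6 background, and the Fmr1-KO mice are given as Fmr1 -/y. Reads counted on genes ranged from 17150820 in WT-Veh RH2 to 20040482 in WT-Nut3 RH9. Levels are CPM, the counts of a gene scaled to the total of its library after TMM adjustment, and in bulk tissue a lower level from fewer cells of a type cannot be told apart from less RNA per cell.

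Complement is a cascade of proteases and opsonins. In its classical pathway C1q, built from the A, B and C chains, binds a surface and sets off proteases that cut C4 and C2, whose fragments then cut C3. The C3 fragments tag the surface for uptake, and the small fragments C3a and C5a act through the receptors C3ar1 and C5ar1. Serping1 encodes the C1 inhibitor, which blocks the C1 proteases. In brain, C1q is made mainly by microglia and C4 mainly by astrocytes, and C1q and C3 are known for tagging synapses for removal by microglia.

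The labels and the tissue were checked first. Fmr1 was at 73.9 to 79.5 CPM in the 6 WT libraries and at 28.5 to 37.3 CPM in the 6 KO libraries, and its log2 fold change was -1.18 (SE 0.07) in KO-Veh against WT-Veh (edgeR adjusted p = 1.75e-06). Fmr1 was thus lower in every KO library but was not absent from any, and where along the gene its remaining reads lie was not analysed here. All 8 markers of hippocampal neurons were detected, led by Camk2a, and their sum was 6961 CPM in KO-Nut3 RH6 and 8971 to 10515 CPM in the other 11 libraries. Some libraries stood apart in markers of neighbouring tissue. The summed level of 15 choroid plexus genes, led by Ttr, was above 5000 CPM in WT-Nut3 RH9, KO-Nut3 RH6 and KO-Nut3 RH13, was 669 CPM in KO-Nut3 RH8, and lay between 155 and 223 CPM in the other 8 libraries. The summed level of 12 fibroblast genes was highest in KO-Nut3 RH8 (297 CPM) and WT-Veh RH5 (223 CPM).

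The 9 genes spanned a wide range of levels. Divided by exonic length, the mean level over the 12 libraries was 34.9 CPM per kilobase for C1qa, 30.7 for C1qb, 15.4 for C1qc and 11.7 for C4b. Serping1 followed at 2.78 CPM per kilobase. The other 4 lay below 1 CPM per kilobase, with C3 at 0.511, C3ar1 at 0.414, C5ar1 at 0.205 and C2 at 0.156. On this scale C1qa stood above 94.6% of the tested genes, Serping1 above 54.7% and C3 above 30.1%. The ranges of C1qa (30.4 to 42.0 CPM per kilobase) and C1qb (27.7 to 36.0) overlapped, as did those of C1qc (13.2 to 18.5) and C4b (9.64 to 13.5). Serping1, at 1.18 to 5.98 CPM per kilobase, overlapped with C3 by a single C3 value, and C3, C3ar1, C5ar1 and C2 overlapped with their neighbours in this order.

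**Figure D1:**
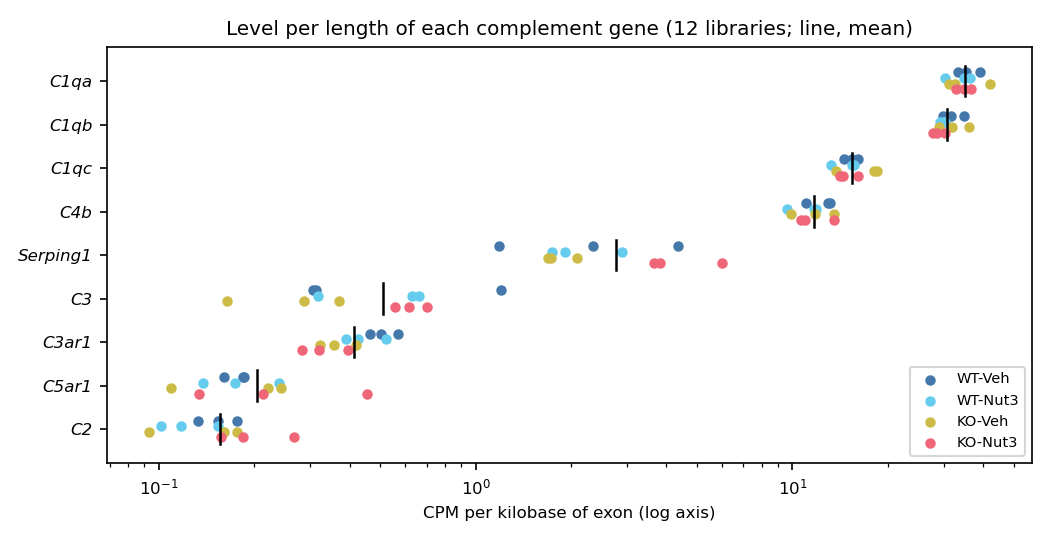
Level of each complement gene in CPM per kilobase of exon (x axis, log scale) in the 12 libraries, coloured by group, with the mean over all libraries as a vertical line. The 3 C1q genes and C4b lie above 9 CPM per kilobase in every library, and C2 has the lowest mean (0.156).

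The genes also differed in how steady they were. The coefficient of variation over the 12 libraries was 9.40% for C1qa, 8.08% for C1qb, 10.4% for C1qc and 11.5% for C4b. It was 21.1% for C3ar1, 29.1% for C2 and 43.4% for C5ar1. Counting error has a part in the latter, since C2 had 7 to 18 reads per library and C5ar1 had 5 to 21. C3 (55.1%) and Serping1 (50.7%) were the most variable, with 15 to 120 and 46 to 243 reads per library.

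**Figure D2:**
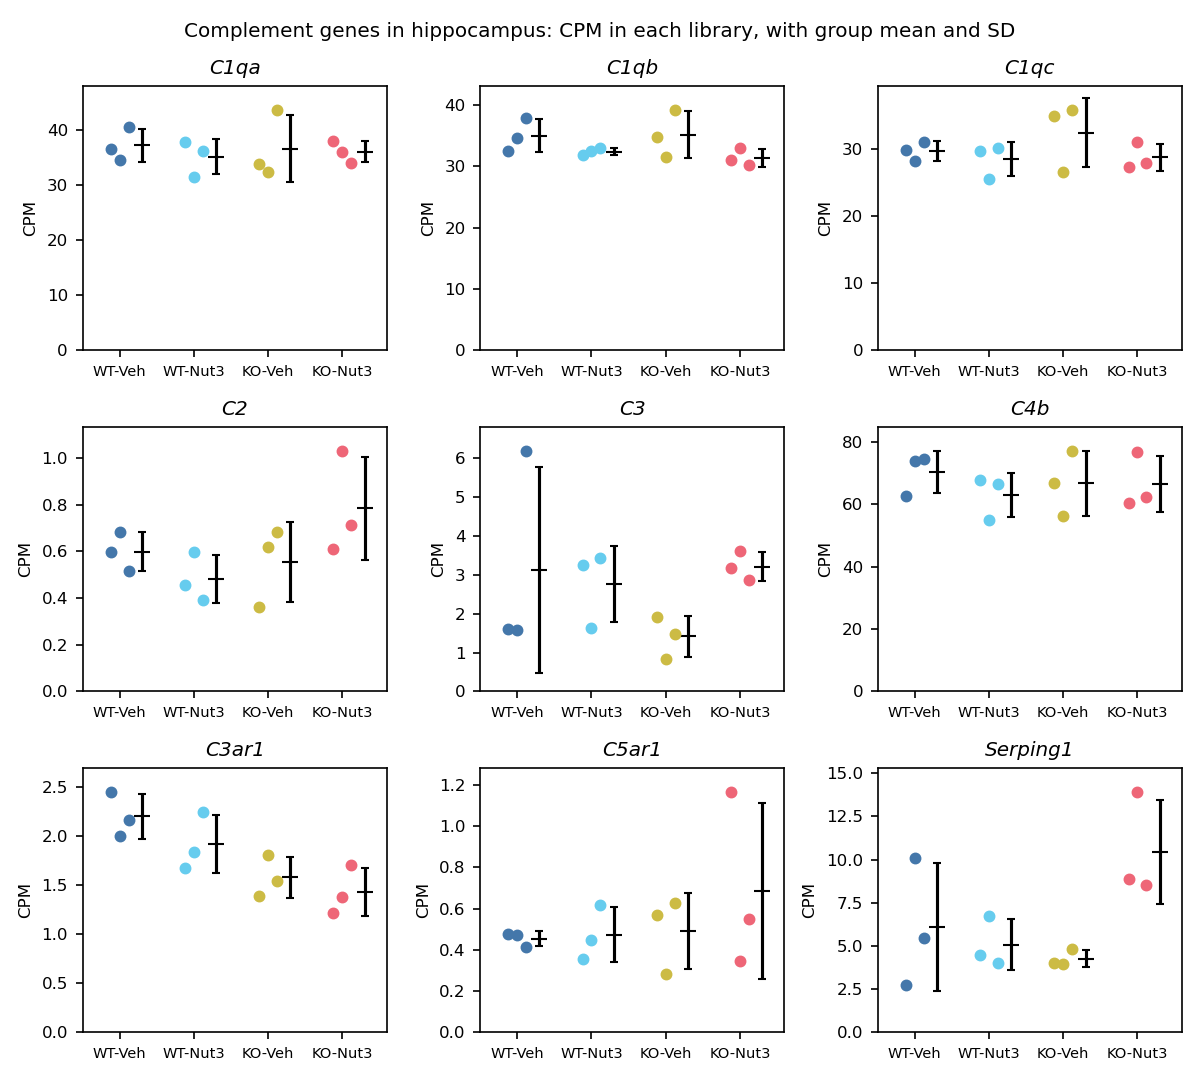
CPM of each complement gene (y axes, starting at 0) in the 3 libraries of each group (points), with the group mean and SD (bars). The C1q genes and C4b sit at like levels in all 4 groups, while Serping1 is at 8.51 to 13.9 CPM in KO-Nut3 and at 3.95 to 4.84 CPM in KO-Veh.

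C1qa, C1qb and C1qc, the chains of the recognition molecule, lie side by side on chromosome 4, on the minus strand. In GRCm38, which is the mm10 build of the counts, C1qb spans chr4:136880129-136886187, C1qc spans chr4:136889804-136893065 and C1qa spans chr4:136895917-136898803. To show what stands before a steady member and a variable one, the 250 bases upstream of the start sites of C1qb (chr4:136886201-136886450) and C3 (chr17:57228137-57228386) are given below from RefSeq (GRCm38.p6), both read on the minus strand. RefSeq windows were matched for 5 of the 9 genes, and those of C1qa, C2, C4b and Serping1 were not analysed here. Capitals mark matches on either strand to GAGGAA, the core of the site for PU.1, a factor of the myeloid lineage, or to the NF-kappaB motif (3 G, any 5 bases and 2 C), named for a factor of inflammatory signalling.
C1qb: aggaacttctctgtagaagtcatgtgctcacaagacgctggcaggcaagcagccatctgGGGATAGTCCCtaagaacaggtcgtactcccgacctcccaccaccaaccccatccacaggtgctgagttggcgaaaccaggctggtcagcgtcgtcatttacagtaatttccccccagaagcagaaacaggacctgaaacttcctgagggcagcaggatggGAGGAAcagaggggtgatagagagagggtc
C3: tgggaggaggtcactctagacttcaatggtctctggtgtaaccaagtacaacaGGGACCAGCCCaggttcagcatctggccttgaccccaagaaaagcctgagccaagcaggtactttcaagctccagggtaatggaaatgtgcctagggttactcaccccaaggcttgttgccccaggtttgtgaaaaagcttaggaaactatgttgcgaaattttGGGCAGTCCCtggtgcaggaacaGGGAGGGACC
C1qb held 1 match to GAGGAA, from base -30 to -25 before its start site, and 2 overlapping matches to the NF-kappaB motif. C3 held 4 matches to the NF-kappaB motif, 2 of them overlapping, and 0 to GAGGAA. Such matches are common: 23.3% of all 32851 windows of this length held GAGGAA and 45.8% held the NF-kappaB motif. Neither window matched the interferon-stimulated response element (GAAA, any 2 bases and GAAA, in 2.98% of all windows) or TTCNNNGAA, the core of the STAT site (7.02%).

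The C1q genes were at like levels in all 4 groups. C1qa was at 36.6, 34.7 and 40.5 CPM in WT-Veh and at 37.8, 31.6 and 36.3 CPM in WT-Nut3. It was at 34.0, 32.4 and 43.7 CPM in KO-Veh and at 38.0, 36.1 and 34.1 CPM in KO-Nut3. The groups overlapped, and the highest and the lowest KO-Veh library stood outside the range of the KO-Nut3 libraries on both sides. C1qb was at 32.5, 34.5 and 37.8 CPM in WT-Veh, 31.8, 32.4 and 32.9 in WT-Nut3, 34.7, 31.4 and 39.1 in KO-Veh, and 31.0, 32.9 and 30.1 in KO-Nut3. C1qc was at 29.8, 28.1 and 31.0 CPM in WT-Veh, 29.7, 25.6 and 30.1 in WT-Nut3, 34.9, 26.5 and 35.8 in KO-Veh, and 27.3, 31.0 and 27.8 in KO-Nut3. For both of these genes every pair of groups overlapped, and KO-Veh had the widest spread of the 4 groups.

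The fitted differences of the C1q genes were small and their intervals narrow. In KO-Nut3 against KO-Veh the log2 fold change was -0.03 (SE 0.12) for C1qa, -0.17 (SE 0.10) for C1qb and -0.18 (SE 0.12) for C1qc. The 95% intervals of the fold ran from 0.821 to 1.17 for C1qa, from 0.769 to 1.03 for C1qb and from 0.735 to 1.06 for C1qc. In KO-Veh against WT-Veh the log2 fold changes were -0.02, 0.01 and 0.13 in the same order, and in WT-Nut3 against WT-Veh they were -0.08, -0.11 and -0.06. None of these passed the threshold, an adjusted p under 0.05 by the quasi-likelihood test of edgeR with Benjamini-Hochberg adjustment over all tested genes. The proportions of the chains were steady as well. The ratio of C1qa to C1qb, both in CPM per kilobase, lay between 1.02 and 1.28, and that of C1qc to C1qb between 0.445 and 0.566.

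Markers of microglia are given beside C1q. The summed level of 15 microglia genes, led by Csf1r, was 417, 402 and 440 CPM in WT-Veh, 403, 374 and 429 in WT-Nut3, 409, 380 and 436 in KO-Veh, and 357, 408 and 408 in KO-Nut3. None of the 15 passed the threshold in KO-Nut3 against KO-Veh, where 4 lay above 0 and 11 below, with a median log2 fold change of -0.07.

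C4b and C2 encode the proteins whose fragments form the C3-cutting enzyme. C4b (chr17:34728380-34743882, minus strand) was at 62.7, 73.9 and 74.6 CPM in WT-Veh, 67.7, 54.9 and 66.7 in WT-Nut3, 67.0, 56.2 and 77.1 in KO-Veh, and 60.4, 76.7 and 62.4 in KO-Nut3. Its groups overlapped in every pair. The log2 fold change in KO-Nut3 against KO-Veh was -0.01 (SE 0.12, edgeR adjusted p = 0.998), with a 95% interval of the fold from 0.820 to 1.21. In KO-Veh against WT-Veh it was -0.08 (SE 0.10) and in WT-Nut3 against WT-Veh -0.16 (SE 0.09).

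Reads that map equally well to C4b and its near-identical neighbour C4a (chr17:34809092-34823464) were set apart as mapped to several places. They were counted on neither gene, so the counts of both genes could be too low. Their longest transcripts are identical at 96.1% of aligned bases, the longest identical run is 433 bases, and 15.2% of all 100-base words of C4b also occur in C4a. The stretch of 60 coding bases of C4b in which they differ most is shown to mark where reads can be told apart. It lies in exon 21 of both transcripts, at chr17:34735430-34735489 for C4b and chr17:34816086-34816145 for C4a in GRCm38, both on the minus strand, and capitals mark the 13 differing bases.
C4b: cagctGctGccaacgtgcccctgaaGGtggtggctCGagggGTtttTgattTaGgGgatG
C4a: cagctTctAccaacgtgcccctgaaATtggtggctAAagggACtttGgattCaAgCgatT
C4a was at 2.72 to 4.39 CPM over the 12 libraries, or 0.533 CPM per kilobase on average against 11.7 for C4b.

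C2 (chr17:34862604-34898265, minus strand) was near the detection limit. It was at 0.597, 0.683 and 0.515 CPM in WT-Veh, 0.456, 0.596 and 0.392 in WT-Nut3, 0.361, 0.620 and 0.683 in KO-Veh, and 0.610, 1.03 and 0.714 in KO-Nut3. All KO-Nut3 libraries lay above all WT-Nut3 libraries, and the other pairs of groups described here overlapped. The log2 fold change in KO-Nut3 against WT-Nut3 was 0.68 (SE 0.39, edgeR adjusted p = 0.928), and in KO-Nut3 against KO-Veh it was 0.50 (SE 0.42, adjusted p = 0.802). The annotation limits this gene, since 46.9% of its exonic bases are shared with Gm20547 on the same strand or Zbtb12 on the other, and reads on the bases shared with Gm20547 are ambiguous with or without strand.

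C3, the central component of all complement pathways, was the most variable gene of the 9. C3 (chr17:57203970-57228136, minus strand) was at 1.61, 1.58 and 6.18 CPM in WT-Veh and at 3.24, 1.64 and 3.42 CPM in WT-Nut3. In KO-Veh it was at 1.91, 0.845 and 1.48 CPM, and in KO-Nut3 at 3.16, 3.61 and 2.85 CPM. The 3 KO-Nut3 libraries lay above the 3 KO-Veh libraries, while WT-Veh overlapped with every other group, with RH15 far above RH2 and RH5.

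The log2 fold change of C3 in KO-Nut3 against KO-Veh was 1.17 (SE 0.30), from a mean of 1.41 CPM to 3.21 CPM. It did not pass the threshold (edgeR adjusted p = 0.242), nor with DESeq2 (adjusted p = 0.0831). When all genes with at least 1 count were tested, C3 passed in this comparison (edgeR adjusted p = 0.0226) and, lower in KO-Veh, in KO-Veh against WT-Veh (adjusted p = 0.00825). Over all genes, that setting also called more genes in both comparisons than the main filter, by numbers given in the last section. Leaving out any single library kept the log2 fold change in KO-Nut3 against KO-Veh between 0.91 and 1.45. In KO-Veh against WT-Veh it was -1.15 (SE 0.48, edgeR adjusted p = 0.674), and without WT-Veh RH15 it was -0.16. In KO-Nut3 against WT-Veh it was 0.03 (SE 0.48, adjusted p = 0.994), and 1.01 without that library. WT-Veh RH15 was also the library highest in neutrophil and monocyte markers. Their summed level, over 7 genes led by S100a9, was 5.97 CPM there, 4.71 CPM in KO-Nut3 RH6 and at most 1.26 CPM in the other 10, and Ly6g and Retnlg, which define neutrophils, had at most 3 reads in any library. The part of these cells in the C3 level was not tested.

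C3ar1, the receptor of C3a, was lower in each KO-Veh and KO-Nut3 library than in any WT-Veh library. C3ar1 (chr6:122847138-122856161, minus strand) was at 2.45, 2.00 and 2.16 CPM in WT-Veh, 1.67, 1.84 and 2.24 in WT-Nut3, 1.39, 1.80 and 1.54 in KO-Veh, and 1.22, 1.37 and 1.70 in KO-Nut3. WT-Nut3 overlapped with each of the other 3 groups. The log2 fold change was -0.48 (SE 0.25, edgeR adjusted p = 0.740) in KO-Veh against WT-Veh and -0.61 (SE 0.25, adjusted p = 0.511) in KO-Nut3 against WT-Veh. These 2 comparisons share the WT-Veh libraries. In KO-Nut3 against KO-Veh it was -0.14 (SE 0.27), and in WT-Nut3 against WT-Veh -0.20 (SE 0.23). C3ar1 had 22 to 42 reads per library.

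C5ar1, the receptor of C5a on myeloid cells (chr7:16246743-16259540, minus strand), was at 0.478, 0.473 and 0.412 CPM in WT-Veh and 0.355, 0.447 and 0.617 in WT-Nut3. It was at 0.568, 0.282 and 0.626 CPM in KO-Veh and 1.16, 0.344 and 0.549 in KO-Nut3. The groups overlapped in every pair. Its log2 fold change in KO-Nut3 against KO-Veh was 0.47 (SE 0.54, edgeR adjusted p = 0.863) and turned to -0.14 without KO-Nut3 RH6. RH6 had the second highest sum of neutrophil and monocyte markers, and WT-Veh RH15, with the highest sum, was at 0.412 CPM of C5ar1. The part of these cells in the C5ar1 level was not tested.

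Serping1 had the largest difference between groups of the 9 genes. Serping1 (chr2:84765387-84775444, minus strand) was at 8.87, 13.9 and 8.51 CPM in KO-Nut3 and at 4.02, 3.95 and 4.84 CPM in KO-Veh. It was at 2.75, 10.1 and 5.46 CPM in WT-Veh and at 4.46, 6.75 and 4.04 CPM in WT-Nut3. The KO-Nut3 libraries lay above all KO-Veh and all WT-Nut3 libraries, and WT-Veh spread across the range of the other groups, with RH2 the lowest of the 12 libraries and RH5 the second highest.

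In KO-Nut3 against KO-Veh the log2 fold change of Serping1 was 1.28 (SE 0.22), from a mean of 4.27 ± 0.496 CPM to 10.4 ± 3.02 CPM (SD, n = 3 each), with a 95% interval of the fold from 1.75 to 3.40. It missed the threshold with edgeR (adjusted p = 0.0563) and passed it with DESeq2 (adjusted p = 3.23e-05). Leaving out a library gave 1.02 to 1.41. The edgeR adjusted p lay under the threshold in 2 of 6 such fits, without KO-Nut3 RH6 (0.0239) and without KO-Nut3 RH8 (0.0266). Over all alternatives that were run, the adjusted p reached 0.480. A division of the RH numbers was found in the share of reads mapped to several places. Up to RH8, KO-Nut3 had 8.87 and 13.9 CPM and KO-Veh 4.02 CPM, and from RH9 KO-Nut3 had 8.51 CPM and KO-Veh 3.95 and 4.84 CPM. With this division as a term the log2 fold change was 1.22 (edgeR adjusted p = 0.156).

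The other comparisons of Serping1 did not pass the edgeR threshold among the genes with more than 20 counts. When all genes with at least 1 count were tested, Serping1 passed in KO-Nut3 against WT-Nut3 (edgeR adjusted p = 0.0479) and in the interaction (adjusted p = 8.96e-06). Over all genes, that setting also called more genes in both than the filter of more than 20 counts, by numbers given in the last section. The log2 fold change was 1.03 (SE 0.25, edgeR adjusted p = 0.928) in KO-Nut3 against WT-Nut3 and 0.77 (SE 0.39, adjusted p = 0.602) in KO-Nut3 against WT-Veh. The former was 1.71 without the 3 libraries high in choroid plexus genes. There KO-Nut3 RH8 alone, the library highest in Serping1, is set against 2 WT-Nut3 libraries. The latter was 1.34 without WT-Veh RH5, 0.42 without WT-Veh RH2 and 0.50 without KO-Nut3 RH8. In KO-Veh against WT-Veh it was -0.52 (SE 0.33, adjusted p = 0.781), and 0.04 without WT-Veh RH5. In WT-Nut3 against WT-Veh it was -0.26 (SE 0.38, adjusted p = 0.998), and 0.30 without WT-Veh RH5. The interaction, which asks whether Nutlin-3 acted differently in KO and WT, was 1.55 (SE 0.50, edgeR adjusted p = 0.993), and without WT-Veh RH5 it was 0.98.

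**Figure D3:**
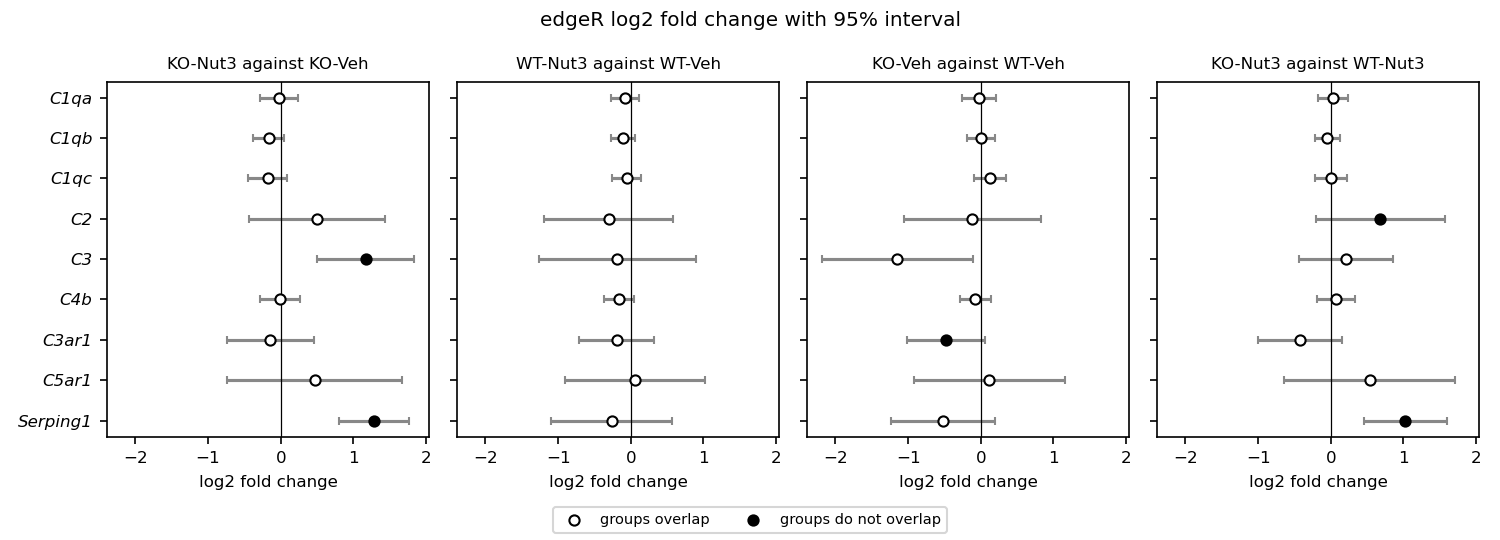
Log2 fold change of each complement gene (x axes) in 4 comparisons, with the 95% interval of the edgeR fit, filled where the libraries of the groups do not overlap. The intervals of the C1q genes and C4b stay within 0.5 of 0 in all 4 panels, and those of C3 and Serping1 lie above 0 in KO-Nut3 against KO-Veh.

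The members can be read against all genes tested. In KO-Nut3 against KO-Veh, 0 of 9 complement genes and 0.199% of all tested genes passed the edgeR threshold, and 2 of the 9 and 1716 of the 22592 had an unadjusted p under 0.05. With DESeq2, 1 of 9 passed, against 1.08% of all tested genes. The libraries of KO-Nut3 lay above those of KO-Veh for 2 of 9 complement genes, against 7.85% of all tested genes. The median log2 fold change of the 9 was -0.01, and that of all tested genes was 0.00. In KO-Veh against WT-Veh 0 of 9 passed, against 0.0177% of all tested genes (1 and 1627 with an unadjusted p under 0.05, and 0 of 9 with DESeq2, against 0.0974%), and 1 of 9, C3ar1, lay lower without overlap, against 6.46%, and 0 of 9 higher, against 5.9%. In WT-Nut3 against WT-Veh 0 of 9 passed, against 0% of all tested genes with edgeR and with DESeq2 (0 of 9 and 717 with an unadjusted p under 0.05), and 0 of 9 were without overlap, against 7.52% (3.6% higher and 3.92% lower). In KO-Nut3 against WT-Veh 0 of 9 passed, against 0.00443% of all tested genes (1 and 2071 with an unadjusted p under 0.05, and 0 of 9 with DESeq2, against 0.983%), and C3ar1 lay lower without overlap, against 7.09%, and 0 of 9 higher, against 7.92%. In KO-Nut3 against WT-Nut3 0 of 9 passed, against 0.00443% of all tested genes (1 and 1101 with an unadjusted p under 0.05, and 0 of 9 with DESeq2, against 0.031%), and C2 and Serping1 lay higher without overlap, against 5.3%. For the interaction 0 of 9 passed with either tool, against 0% of all tested genes with edgeR, and 1 of 9 and 942 of all had an unadjusted p under 0.05.

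Markers of fibroblasts, border macrophages and blood vessels are given beside Serping1. Of all tested genes in KO-Nut3 against KO-Veh, 0.199% passed the threshold with edgeR and 1.08% with DESeq2. An unadjusted p under 0.05 was found for 1716 of 22592, and 7.85% lay higher without overlap. The summed level of the 12 fibroblast genes was 145, 297 and 116 CPM in KO-Nut3, 97.2, 103 and 110 in KO-Veh, 79.5, 223 and 113 in WT-Veh, and 94.9, 120 and 59.3 in WT-Nut3. Of these 12, 1 (Igf2) passed the edgeR threshold in KO-Nut3 against KO-Veh and 6 passed with DESeq2, 11 had a log2 fold change above 0, and the median was 1.38. The most abundant gene, Dcn, was at 20.3, 56.5 and 44.4 CPM in KO-Nut3 and at 43.0, 56.8 and 56.6 CPM in KO-Veh. No gene of the list was at 0 in all libraries. The 9 border macrophage genes, led by Stab1, summed to 36.9, 49.4 and 30.0 CPM in KO-Nut3, 27.9, 23.8 and 28.9 in KO-Veh, 23.0, 36.3 and 29.4 in WT-Veh, and 30.0, 32.1 and 22.3 in WT-Nut3. All 9 lay above 0 between KO-Nut3 and KO-Veh (median 0.88 on the log2 fold change scale), with 0 past the edgeR threshold, 3 with an unadjusted p under 0.05 and 1 past the threshold with DESeq2. The 8 mural cell genes, led by Rgs5, summed to 183, 213 and 175 CPM in KO-Nut3, 172, 153 and 137 in KO-Veh, 167, 203 and 168 in WT-Veh, and 185, 180 and 160 in WT-Nut3. Between KO-Nut3 and KO-Veh all 8 lay above 0 (median 0.38 on the log2 fold change scale), and 0 passed the threshold with edgeR or DESeq2 (2 with an unadjusted p under 0.05). The 9 endothelial genes, led by Flt1, summed to 254, 276 and 265 CPM in KO-Nut3, 238, 218 and 245 in KO-Veh, 252, 261 and 260 in WT-Veh, and 254, 235 and 238 in WT-Nut3. Of these, 6 lay above 0 between KO-Nut3 and KO-Veh, 5 were higher without overlap, 5 had an unadjusted p under 0.05, and 0 passed the threshold with edgeR or DESeq2. None of the mural or endothelial genes was at 0 in all libraries. KO-Nut3 RH8 and WT-Veh RH5, the 2 libraries highest in fibroblast and in mural cell genes, were also the 2 highest in Serping1. The part of these cells in the Serping1 level was not tested.

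Markers of the choroid plexus are given as well. All 15 were above 0 in KO-Nut3 against KO-Veh, 5 passed the edgeR threshold and 14 passed with DESeq2, and the median log2 fold change was 4.48. KO-Nut3 RH8, the library with the highest Serping1, had the lowest choroid plexus sum of its group. With the 3 libraries above 5000 CPM left out, an alternative chosen after seeing the data, RH8 was the only KO-Nut3 library. The log2 fold change against KO-Veh was then 1.71 for Serping1 and 1.35 for C3. The part of choroid plexus cells in the Serping1 and C3 levels was not tested.

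**Figure D4:**
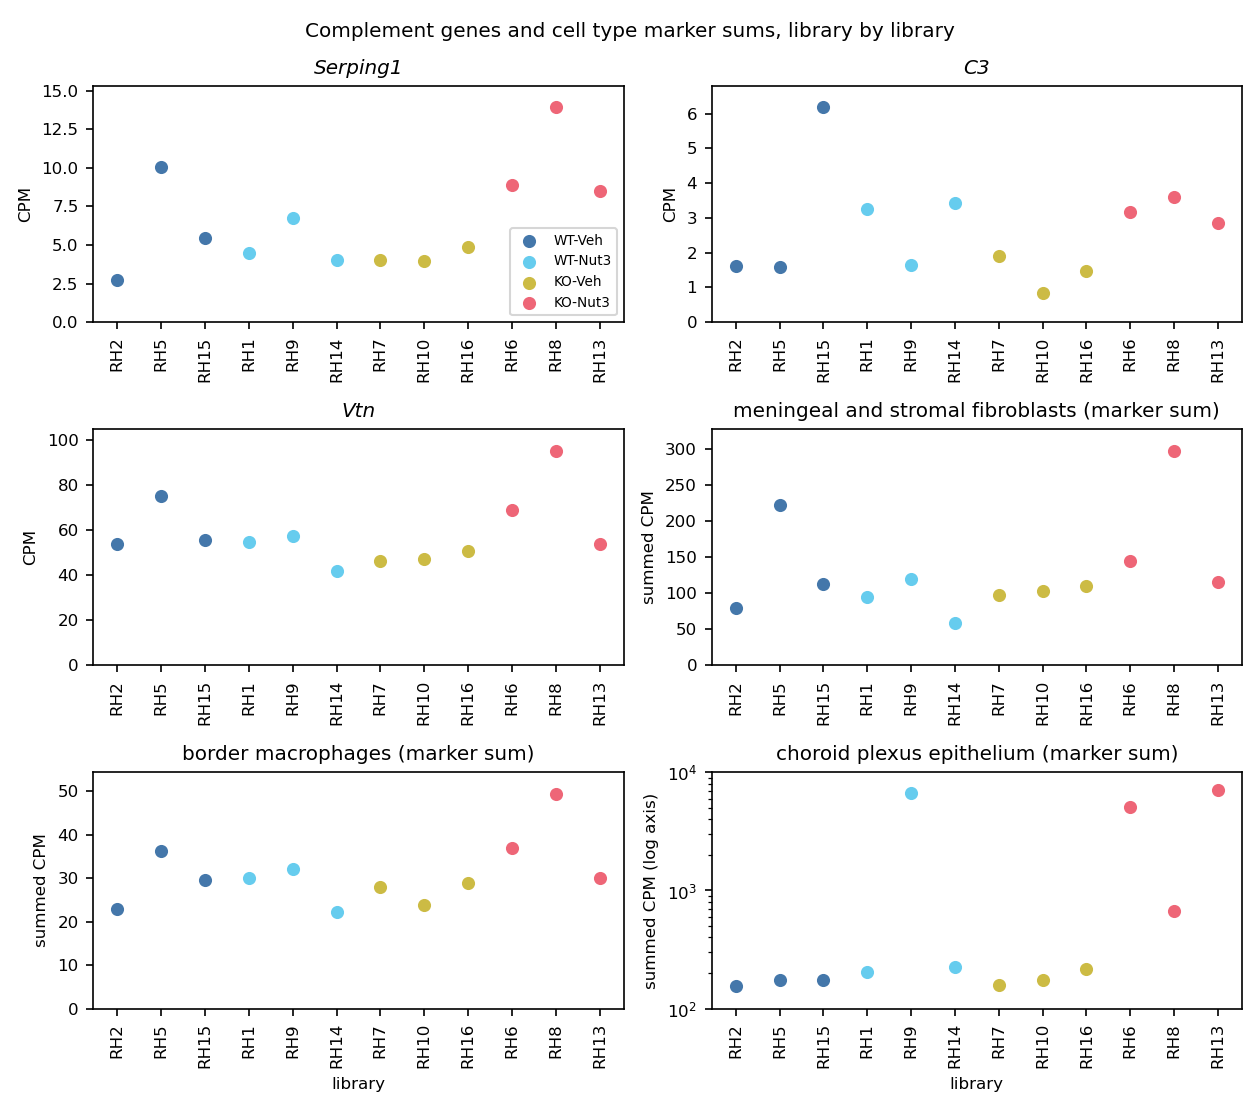
Serping1, C3 and Vtn in CPM and the summed CPM of fibroblast, border macrophage and choroid plexus markers (y axes, the last on a log scale) in each of the 12 libraries (x axes), coloured by group. Serping1, Vtn and the fibroblast sum are highest in KO-Nut3 RH8, followed by WT-Veh RH5, whereas the choroid plexus sum is above 5000 CPM in WT-Nut3 RH9, KO-Nut3 RH6 and KO-Nut3 RH13.

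Of 46 other complement genes, 35 were tested, and 0 passed the edgeR threshold in KO-Nut3 against KO-Veh, against 0.199% of all tested genes. There 10 of the 35 had an unadjusted p under 0.05, against 1716 of the 22592 tested genes. DESeq2 called 2 of the 35, against 1.08% of all tested genes. Both were higher in KO-Nut3, among them Vtn (adjusted p = 0.0286). The median of the 35 on the log2 fold change scale was 0.03, beside 0.00 for all tested genes. In 8 of them KO-Nut3 lay above KO-Veh without overlap and in 3 below, against 7.85% and 5.44% of all tested genes. No gene of the 35 passed the edgeR threshold in the other 5 comparisons, where 2 to 6 had an unadjusted p under 0.05 (717 to 2071 of all tested genes), and DESeq2 called 1 of the 35 in KO-Nut3 against WT-Nut3, against 0.031% of all tested genes. Of the genes named next, Vtn, Cd55, Cd59a, Cd59b, Cpn1, Csmd2, Csmd3, C1ra and C1s1 were chosen after their values were seen.

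The soluble and membrane regulators held most of these. Vtn, vitronectin, which inhibits the membrane attack complex, was at 68.9, 95.3 and 53.7 CPM in KO-Nut3 and at 46.3, 47.3 and 51.0 CPM in KO-Veh (log2 fold change 0.59, SE 0.17, edgeR adjusted p = 0.342). These groups did not overlap, and Vtn was, like Serping1, highest in KO-Nut3 RH8 and next in WT-Veh RH5, at 75.2 CPM. Cd55, a membrane protein that breaks up C3-cutting enzymes, was at 6.21, 6.59 and 8.51 CPM in KO-Nut3 and at 4.33, 4.57 and 4.44 CPM in KO-Veh, and its highest value, 10.4 CPM, was in WT-Nut3 RH9.

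Cd59a was high in the libraries high in choroid plexus genes. Cd59a, an inhibitor of the membrane attack complex, was at 12.9, 3.61 and 13.9 CPM in KO-Nut3 RH6, RH8 and RH13 and at 14.5 CPM in WT-Nut3 RH9, against 2.76 to 5.21 CPM in the other 8 libraries. Its log2 fold change in KO-Nut3 against KO-Veh was 1.42 (SE 0.43, edgeR adjusted p = 0.383), and -0.06 with the 3 libraries high in choroid plexus genes left out. Those 3 are also the libraries highest in Cd59a, and RH8 is then the only KO-Nut3 library, so a lower value was set in advance. The part of choroid plexus cells in the Cd59a level was not tested. Clu, clusterin, the most abundant complement gene measured here in CPM, was at 643 to 809 CPM over all 12 libraries. Csmd1 and Csmd2, neuronal inhibitors of complement, were lower in KO-Nut3 than in KO-Veh without overlap. Their log2 fold changes were -0.26 (SE 0.07, edgeR adjusted p = 0.302) and -0.25 (SE 0.08, adjusted p = 0.411). Csmd3 overlapped between these groups, at 50.8, 47.2 and 39.9 CPM in KO-Nut3 and 47.6, 46.6 and 52.7 CPM in KO-Veh. All 8 hippocampal neuron markers also lay below 0 in this comparison, with a median log2 fold change of -0.13 and 0 past the threshold. Their sum was 6961, 9138 and 9197 CPM in KO-Nut3 and 9412, 9434 and 9393 CPM in KO-Veh, and the part of neurons in the levels of Csmd1 and Csmd2 was not tested. Susd4, another neuronal regulator, was at 137 to 166 CPM in all libraries.

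Among the initiators and proteases 10 of 15 genes were tested, with C1qbp, Cfp and Masp1 the most abundant in CPM. Cfp, properdin, which stabilizes the alternative pathway enzyme, was at 14.1 to 20.4 CPM. C1ra and C1s1, the proteases that Serping1 blocks, were at 0.761 to 2.25 and 0.537 to 1.49 CPM. The log2 fold change in KO-Nut3 against KO-Veh was 0.54 (SE 0.34) for C1s1, whose libraries did not overlap, and 0.25 (SE 0.32) for C1ra. In the terminal pathway 4 of 7 genes were tested. C8g led it at 2.94 to 4.62 CPM, C7 was at 0.222 to 1.47 CPM over all libraries and Hc, which encodes C5, was at 0.179 to 1.08 CPM, while C6 and C9 had at most 3 reads in any library. C7, which joins the membrane attack complex, was lower in KO-Nut3 (0.222, 0.286 and 0.769 CPM) than in KO-Veh (0.877, 1.47 and 0.911 CPM) without overlap, with a log2 fold change of -1.33 (SE 0.50, edgeR adjusted p = 0.550) and 4 to 26 reads per library. Of the receptors, Cd93, Itgb2 and Itgam were the most abundant in CPM. Cd93 was at 9.09, 12.9 and 8.45 CPM in KO-Nut3 and at 6.60, 5.75 and 8.09 CPM in KO-Veh (log2 fold change 0.57, SE 0.20, edgeR adjusted p = 0.480), and Itgam, a chain of complement receptor 3, was at 3.92 to 6.03 CPM over all libraries. Vsig4, Mbl1 and C1rb had 0 reads in all 12 libraries, which allows at most 0.179 CPM in any library for counting error only.

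**Figure D5:**
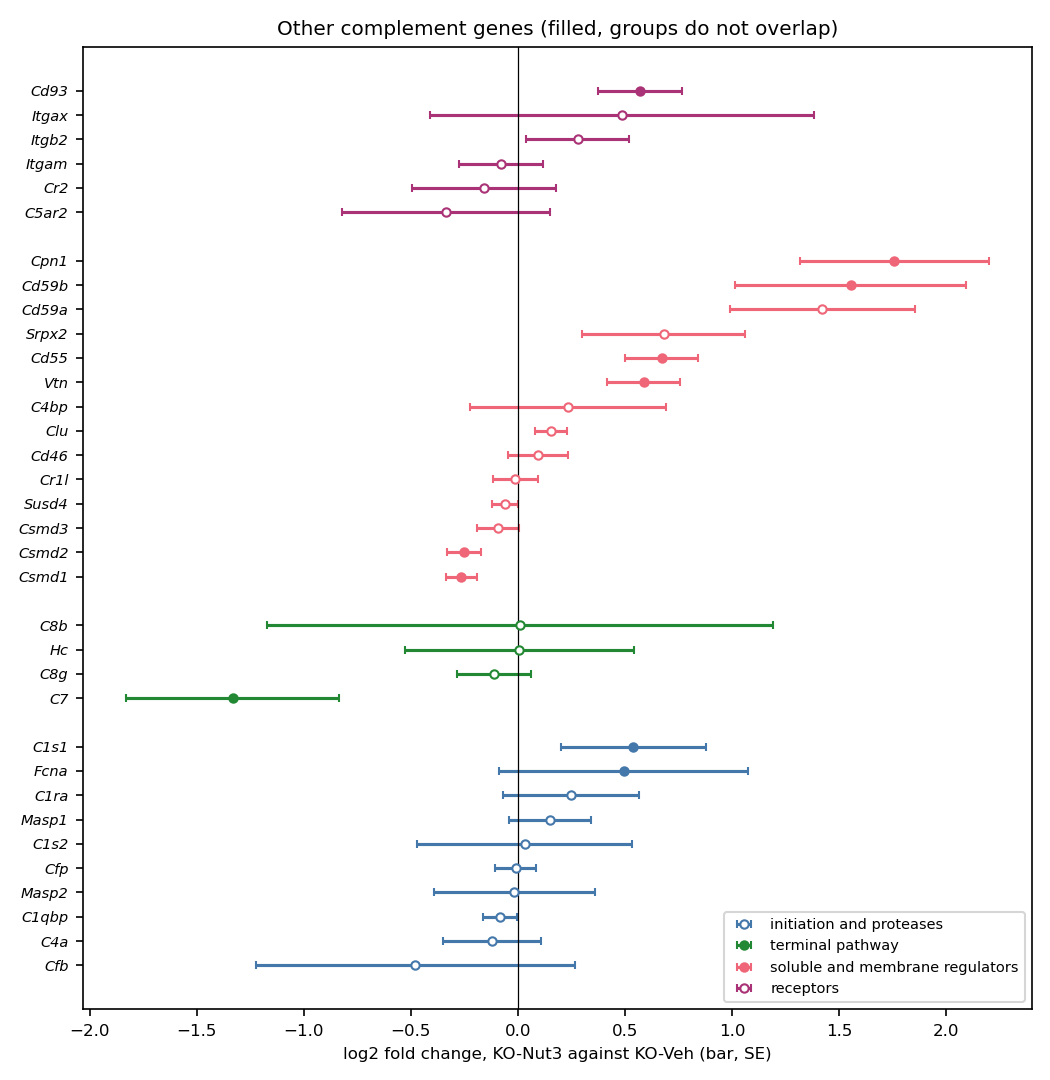
Log2 fold change (x axis, with SE) of other complement genes in KO-Nut3 against KO-Veh, coloured by role and filled where the libraries of the 2 groups do not overlap. Of the regulators, Cpn1, Cd59b, Cd55 and Vtn are filled above 0 and Csmd1 and Csmd2 below, while all but 2 of the initiators are open.

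The genes most like each member were sought among the 15346 tested genes with a mean of at least 1 CPM, by Pearson's r of log2 CPM over the 12 libraries. These values describe shared patterns, in libraries that also share depth and tissue makeup, and carry no test. For Serping1 they were Aebp1 (r = 0.967), Slc6a20a (0.964) and Anxa1 (0.964). After the group means were removed, Anxa1 (0.956) and Mxra8 (0.952) were among its leading genes. C1qa was most like Itpr2 (0.942), Slc43a2 (0.911) and Gpr37l1 (0.896). For C1qb they were Ddah1 (0.850), S1pr1 (0.833) and Gm31614 (0.822), and for C1qc Gm47483 (0.837), Cars2 (0.832) and Rbmx (0.828), all less alike than the leading genes of the other members. C4b was most like Pex16 (0.885), Fhl3 (0.880) and the interferon-induced gene Isg15 (0.862). For C3 they were Adam18 (0.934), Rpl3-ps1 (0.894) and Pick1 (0.880). Nol4 (0.925) and Upk1b (0.925) were among those of C3ar1. C2 and C5ar1, with few reads, were most like Gabarapl2 (0.883) and Rad51d (0.906).

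Of the 36 pairs of members, those with an unadjusted permutation p under 0.05 for r or rho were the 3 pairs of C1q chains, the 3 pairs of a C1q chain with C4b, and C2 with Serping1. The pair C1qb and C1qc had r = 0.716 and rho = 0.797 over 12 libraries (permutation p = 0.00948 and 0.00292, adjusted p = 0.110 and 0.0512), and r = 0.578 without the 2 libraries farthest from the median of C1qb. Within the 6 libraries up to RH8 r was 0.578, and within the 6 from RH9 it was 0.839. C1qc and C4b had r = 0.720 and rho = 0.839 (permutation p = 0.00818 and 0.00117, adjusted p = 0.110 and 0.0421), with 0.825 without the 2 farthest libraries, 0.202 up to RH8 and 0.948 from RH9. C1qa and C1qb had r = 0.641 and rho = 0.343 (permutation p = 0.0249 and 0.274, adjusted p = 0.149 and 1.0) and 0.406 without the 2 farthest libraries, but -0.984 within the libraries up to RH8 and 0.902 within those from RH9. C1qa and C1qc had r = 0.628 and rho = 0.497 (permutation p = 0.0290 and 0.104, adjusted p = 0.149 and 0.627), with 0.191 without the 2 farthest libraries, -0.612 up to RH8 and 0.975 from RH9. C1qb and C4b had r = 0.697 and rho = 0.776 (permutation p = 0.0111 and 0.00427, adjusted p = 0.110 and 0.0512), with 0.534 without the 2 farthest libraries, 0.557 up to RH8 and 0.838 from RH9. C1qa and C4b had r = 0.676 and rho = 0.587 (permutation p = 0.0153 and 0.0482, adjusted p = 0.110 and 0.426), with 0.434, -0.471 and 0.983 in the same order. The remaining pair, C2 and Serping1, had r = 0.681 and rho = 0.566 (permutation p = 0.0140 and 0.0591, adjusted p = 0.110 and 0.426), with 0.457, 0.734 and 0.527. With the group means removed, r was 0.490 for C2 and Serping1. Between the C1q chains it was 0.722 (C1qa and C1qb), 0.683 (C1qa and C1qc) and 0.701 (C1qb and C1qc). With C4b it was 0.654 for C1qa, 0.787 for C1qb and 0.822 for C1qc.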

How the data were processed

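Poly(A) RNA of hippocampus was sequenced in 12 libraries, 3 for each of 4 groups taken from the labels, and the labels name no pairing or batch. The authors aligned reads to mm10 with STAR and deposited unnormalized counts per gene, with no strand distinction in the column used here. Reads on genes were 17150820 to 20040482 per library, and 3 counts, the limit that a count of 0 allows, were at most 0.179 CPM (counting error only). Of 55421 gene identifiers, 55240 were matched to a GENCODE M21 symbol.

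Genes with more than 20 counts in total (22592) were tested with edgeR 4.0.16 in R 4.3.3: TMM scaling, quasi-likelihood test, two-sided, Benjamini-Hochberg adjustment over all tested genes, adjusted p under 0.05. Each pair of groups was fitted on its own 6 libraries and the interaction on all 12. The fits were tested on simulated data. Alternatives were DESeq2 1.42.0, its size factors, other filters, 1 fit for all libraries, a term for the RH-number division and leaving out each library. Named were the 9 members, other complement genes past the threshold or among the 3 most abundant of their list, the most abundant gene of each marker list, and the 3 genes most like each member, with exceptions given in the text. Members and lists were chosen with earlier results of these data known. Correlations used log2 CPM with a prior count of 1 and permutation tests. Some genes that these rules select are not reported here.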

Additional observations from a re-analysis of the deposited data

Results flagged for a closer look

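C2 carried reads outside the column analysed. The 2 strand-specific count columns, which no comparison used, together held 410 more reads of C2 over the 12 libraries than the 133 in the unstranded column. Of its exonic bases, 42.8% are shared with Gm20547 on the same strand, where reads are ambiguous with or without strand. Another 4.16% are shared with Zbtb12 on the other strand, and the part of Zbtb12 in the additional reads was not tested.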

How the results depend on the processing

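No paired analysis was possible because the RH numbers are not shared between groups. The libraries number 3 per group, C2 and C5ar1 had at most 21 reads in any of them, and p-values measure the spread between these animals only. The cause of the changes below was not tested. The number of complement genes past the threshold in KO-Nut3 against KO-Veh went from 0 to 1 with DESeq2. It went to 2 (Serping1 and C3) when all genes with at least 1 count were tested, and to between 0 and 1 with 1 library left out. Testing all genes with at least 1 count also gave 1 in KO-Veh against WT-Veh (C3), in KO-Nut3 against WT-Nut3 and in the interaction (both Serping1). Without the 3 libraries high in choroid plexus genes, KO-Nut3 is RH8 alone in every comparison. It is set against 2 libraries where the other group is WT-Nut3. For the complement genes, only log2 fold changes are therefore given for that alternative. Its counts over all genes are listed in the next paragraph for completeness. They rest on a KO-Nut3 group without replicates, so no conclusion is drawn from them.

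Over all genes, KO-Nut3 against KO-Veh went from 45 to 245 (DESeq2), 544 (at least 1 count), 0 (all 12 libraries in 1 fit), 20 (division of the animal numbers as a term) and 131 (choroid plexus libraries left out), and to 6 to 266 with 1 library left out. KO-Veh against WT-Veh went from 4 to 22, 272, 1 and 21 in the same order, and to 2 to 11. WT-Nut3 against WT-Veh went from 0 to 249 (at least 1 count) and 11 (division), and to 0 to 1. KO-Nut3 against WT-Veh went from 1 to 222, 416, 2, 3 and 14, and to 1 to 197. KO-Nut3 against WT-Nut3 went from 1 to 7 (DESeq2), 38 (at least 1 count) and 316 (choroid plexus libraries left out), and to 0 to 7. The interaction went from 0 to 1 (DESeq2) and 291 (at least 1 count), and to 0 to 1.

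Log2 fold changes that turned in sign lay close to 0 in most cases. With the division as a term they were -0.0261 for C1qb (KO-Veh against WT-Veh), -0.0121 for C5ar1 (WT-Nut3 against WT-Veh), and -0.0183 for C1qa and -0.0206 for C1qc (KO-Nut3 against WT-Nut3). Without the choroid plexus libraries they were 0.20 for C4b and -0.51 for C5ar1 (KO-Nut3 against KO-Veh), 0.0673 for C1qc, 0.12 for C4b and -0.39 for C5ar1 (KO-Nut3 against WT-Veh), -0.0375 for C1qa, 0.0269 for C1qb and -0.48 for C5ar1 (KO-Nut3 against WT-Nut3), and -0.0173 for C1qa, 0.0167 for C1qb, -0.0292 for C3ar1 and -0.60 for C5ar1 (interaction).

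Some log2 fold changes turned in sign when single libraries were left out. In KO-Nut3 against KO-Veh they ran from -0.11 to 0.12 for C1qa, -0.13 to 0.11 for C4b and -0.14 to 0.78 for C5ar1. In KO-Veh against WT-Veh they ran from -0.16 to 0.0617 for C1qa, -0.0726 to 0.083 for C1qb, -0.28 to 0.13 for C2, -0.19 to 0.0353 for C4b, -0.0766 to 0.39 for C5ar1 and -0.86 to 0.0427 for Serping1. In WT-Nut3 against WT-Veh they ran from -0.10 to 0.0153 for C1qc, -0.51 to 0.79 for C3, -0.17 to 0.23 for C5ar1 and -0.61 to 0.30 for Serping1. In KO-Nut3 against WT-Veh they ran from -0.0944 to 0.018 for C1qa, -0.29 to 1.01 for C3 and -0.0205 to 0.91 for C5ar1. In KO-Nut3 against WT-Nut3 they ran from -0.0455 to 0.0839 for C1qa, -0.0644 to 0.0499 for C1qc, -0.0615 to 0.39 for C3, -0.0400 to 0.14 for C4b and -0.0736 to 0.85 for C5ar1. For the interaction they ran from -0.0234 to 0.20 for C1qa, -0.12 to 0.0336 for C1qb, -0.0812 to 0.18 for C3ar1 and -0.20 to 0.74 for C5ar1.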
